A study of Mus musculus with 6 samples.

Results

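The 44 genes described here are interferon-stimulated genes that belong to none of the guanylate-binding protein, oligoadenylate synthetase or IFIT families. They were chosen by name, and each matched 1 of the 54532 genes in the deposited tables through its GENCODE M21 symbol. RNA-seq libraries, 6 in all, were made from iBMDMs, mouse macrophages derived from wild-type C57Bl/6 bone marrow and immortalized with retroviruses that carry v-raf and v-myc. The 3 control libraries came from cells with a control shRNA and the 3 PGAM5 KD libraries from cells with an shRNA against PGAM5, a mitochondrial phosphatase, both delivered by lentivirus. All 6 were treated with LPS, a component of the outer membrane of bacteria that activates TLR4, at 100 ng/ml for 4 hours, and no untreated cells were among the samples. With 1 shRNA per group, an effect of PGAM5 and an effect of the shRNA or of the transduced line cannot be told apart. Whether the 3 libraries of a group were separate cultures is not given, so the p-values measure the spread between these libraries, which may be technical.

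Interferon-stimulated genes are the effectors of the interferon response. In macrophages, LPS signals from TLR4 through TRIF to IRF3, which induces interferon beta. Interferon beta then binds its receptor and signals through kinases to the nucleus, where interferon-stimulated response elements (ISREs) in the promoters of these genes are bound. Their products block virus entry, genome replication and particle release, conjugate the ubiquitin-like protein ISG15 to other proteins, add ADP-ribose to proteins, sense or edit double-stranded RNA, or feed back on the pathway.

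The library depth recovered from the deposited values was between 18163464 and 24388915 fragments, and expression is given as FPKM, the number of fragments for each kilobase of exon after division by library depth. Pgam5 was at 17.1, 13.0 and 13.4 FPKM in control and 4.33, 5.75 and 4.53 in PGAM5 KD libraries, so the labels and the targeted gene went the same way. Of 8 macrophage markers, 7 had a mean FPKM of at least 1 and Mertk was at 0, and their summed level was 1992 to 2038 FPKM in PGAM5 KD and 2521 to 2592 FPKM in control. The markers moved both ways, with Lyz2, Csf1r and Cd68 lower (adjusted p = 0.000114, 4.71e-05 and 0.00110), Adgre1, Itgam and Fcgr1 higher (9.68e-05, 0.00322 and 0.000221) and Spi1 not past the threshold (0.431). Their part in the results that follow was not tested. None of the markers of plasmacytoid dendritic cells (6 genes), conventional dendritic cells (5), neutrophils (6), fibroblasts (5) or lymphocytes (6) had a mean FPKM of at least 1. The summed level of each of those lists stayed at or below 1.89 FPKM in every library, with the highest value in the plasmacytoid list of a control library and Ly6d and Klk1 of that list at 0. Flt3, Ly6g, Col1a2 and Cd3e, which define the other lists, were at 0 in all 6 libraries. In bulk RNA, fewer cells that express a gene and less RNA per cell cannot be told apart.

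Most of the 44 genes were more highly expressed in PGAM5 KD than in control iBMDMs. A gene was tested where its mean over the 6 libraries was at least 1 FPKM, which held for 40 of the 44 members. Sp110 met this minimum through its PGAM5 KD libraries alone, since its control mean was 0.773 FPKM. On log2(FPKM + 1), 36 members were higher in PGAM5 KD at an adjusted p under 0.05 (limma, Benjamini-Hochberg over all 10540 genes tested), against 16.8% of all genes tested. Without Sp110 this was 35 of 39 tested members. Trim25 alone was lower, where 14.9% of all genes were, and Znfx1, Ifi30 and Tor3a did not pass the threshold. Scaled to TPM, 35 members were higher, against 10.3% of all genes, and 1 was lower, against 21.7%. With a log2 fold change above 1 required as well, 12 members were differentially expressed, all of them higher, against 0.787% of all genes. Every PGAM5 KD library lay above every control library for 37 of the 40 tested members, where 24.2% of all genes did so, and below for Trim25, where 22.9% did. An exact permutation test of 3 libraries against 3 cannot give a p below 0.1.

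The log2 fold changes of the tested members ran from -0.14 to 1.51 with a median of 0.61, and those of all genes tested had a median of 0.01. The quartiles of the members were 0.48 and 1.09, against -0.14 and 0.16 for all genes. The summed expression of the 44 genes was 1058, 1034 and 1047 FPKM in control libraries and 1554, 1593 and 1642 FPKM in PGAM5 KD libraries. That was 0.339% to 0.347% of all FPKM in control and 0.489% to 0.508% in PGAM5 KD, so the groups did not overlap on either scale. Across the 40 members, those with lower control expression had somewhat larger log2 fold changes (Spearman rho -0.38, as a description, since the members share libraries and their control value enters both measures).

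**Figure D1:**
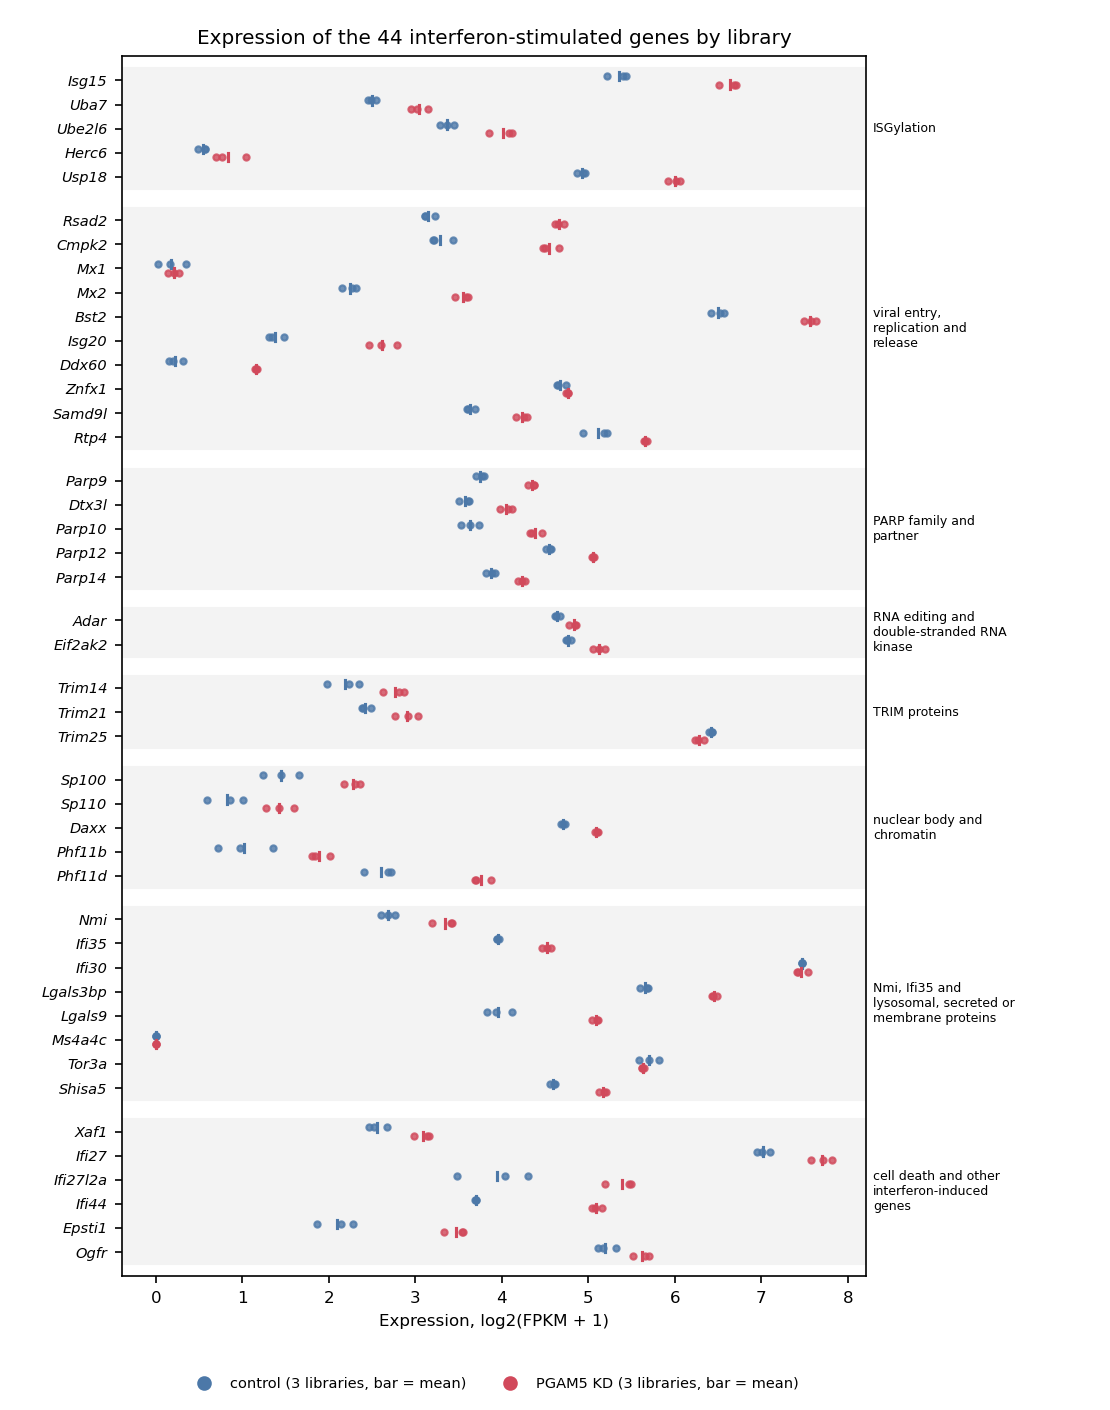
Expression of each of the 44 members on log2(FPKM + 1), with 1 point per library (blue, 3 control; red, 3 PGAM5 KD), a bar at each group mean, and members grouped by function. The red points lie to the right of the blue ones for most members, those of Trim25 lie to the left, and those of Ifi30, Tor3a and Mx1 overlap the blue points, as Ms4a4c does at 0.

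**Figure D2:**
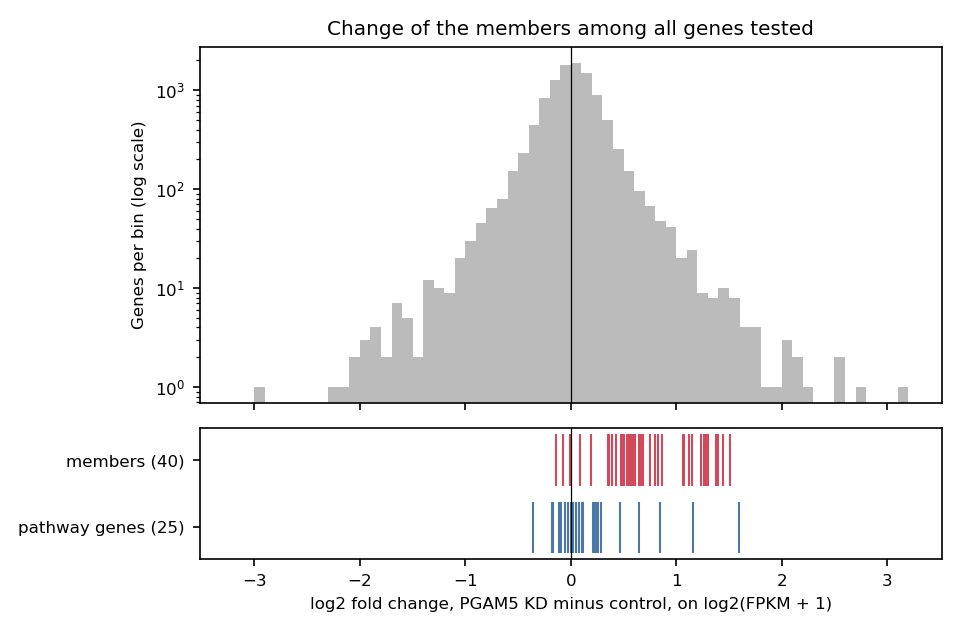
Upper panel, number of genes (log scale) by log2 fold change of PGAM5 KD over control for the 10540 genes tested, in bins of equal width. Lower panel, the 40 tested members (red lines) and 25 tested genes of interferon production and signalling (blue lines) on the same axis. The members spread from -0.14 to 1.51 around a median of 0.61.

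The promoters of the members were searched for the core of the ISRE, GAAANNGAA, and for the gamma-activated site, TTCNNNGAA, with N as any base and both strands read. RefSeq promoters of 300 bases (GRCm38.p6, 250 before to 50 after the start) were matched for 33 of the 44 members, and not for Usp18, Mx1, Mx2, Rtp4, Parp9, Parp10, Parp14, Trim14, Tor3a, Ifi27 and Ifi27l2a. At least 1 promoter of 14 of these 33 members (42.4%) held the ISRE core, as did that of 9.76% of all 27025 genes in the table. The gamma-activated site was in promoters of 6 of the 33 (18.2%), Adar, Bst2, Eif2ak2, Ifi35, Isg20 and Shisa5, and in those of 9.55% of all genes. Counted per promoter, since some genes have several, the ISRE core was in 30.4% of the 46 promoters of members and 8.56% of all, and the gamma-activated site in 13.04% and 8.30%. In 2 members, Bst2 and Shisa5, matches of the motifs overlapped. The matches are letters and not measured sites.

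In 8 members an ISRE core match lay before the transcription start. All 8 are shown, whatever their change. Rsad2, Isg15, Lgals9, Bst2 and Phf11b rose in PGAM5 KD, as Adar did by less. Trim25 fell, with a match in the last bases before its start, and Ddx60 was not tested. Each line gives 60 bases of the gene's strand, 5′ to 3′, with the match in capitals, and overlapping matches run together.
Rsad2 (chr12:26456538-26456597, minus strand): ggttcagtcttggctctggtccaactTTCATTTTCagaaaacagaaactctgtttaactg
Isg15 (chr4:156200857-156200916, minus strand): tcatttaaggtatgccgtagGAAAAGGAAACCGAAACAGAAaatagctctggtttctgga
Lgals9 (chr11:78984945-78985004, minus strand): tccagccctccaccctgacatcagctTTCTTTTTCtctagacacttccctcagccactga
Bst2 (chr8:71537566-71537625, minus strand): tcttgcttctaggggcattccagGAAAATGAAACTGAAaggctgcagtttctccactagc
Phf11b (chr14:59341347-59341406, minus strand): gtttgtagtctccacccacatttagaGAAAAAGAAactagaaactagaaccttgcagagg
Adar (chr3:89730468-89730527, plus strand): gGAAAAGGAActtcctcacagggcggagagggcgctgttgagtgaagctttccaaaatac
Trim25 (chr11:88999343-88999402, plus strand): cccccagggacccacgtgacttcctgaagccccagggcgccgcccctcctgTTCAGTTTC
Ddx60 (chr8:61928025-61928084, plus strand): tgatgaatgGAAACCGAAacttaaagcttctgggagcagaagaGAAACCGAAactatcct

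Isg15 held 3 overlapping matches, the first of which began at position -78 from its start, and Bst2 held 2, the first at -130. Among tested members with a matched promoter, the median log2 fold change was 0.60 in the 13 with an ISRE core and 0.61 in the 17 without. On this scale the largest was 1.51 with (Rsad2) and 1.38 without (Epsti1), so both sets reached log2 fold changes above 1.

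**Figure D3:**
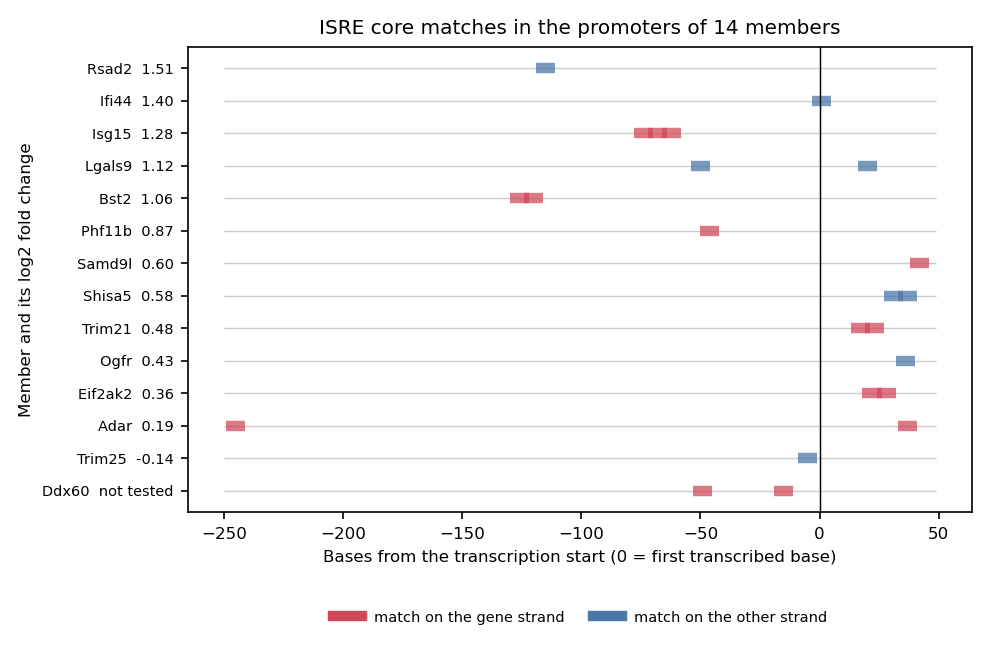
Position of each ISRE core match in bases from the transcription start (0 is the first transcribed base) for the 14 members with a match, ordered by the log2 fold change printed beside each name. Red marks lie on the gene's strand and blue marks on the other. Isg15 has 3 overlapping marks, and matches of Samd9l, Shisa5, Trim21, Ogfr and Eif2ak2 lie after the start.

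ISG15 is attached to proteins by the E1 enzyme UBA7, the E2 enzyme UBE2L6 and, in mice, the E3 ligase HERC6, and it is removed by USP18, which also restrains signalling at the interferon receptor. Of these 5 genes of ISGylation, 4 were tested and all 4 were higher in PGAM5 KD, against 16.8% of all genes tested. Isg15 (ENSMUSG00000035692, chr4:156199424-156200818, GRCm38) was at 41.3, 36.1 and 42.4 FPKM in control and 90.1, 101.9 and 103.1 FPKM in PGAM5 KD libraries. Its lowest PGAM5 KD value was more than double its highest control value, and its log2 fold change was 1.28 (SE 0.076, adjusted p = 6.53e-05).

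Usp18, the gene of the ISG15 protease, was at 29.7, 30.2 and 28.2 FPKM in control and 59.5, 63.8 and 65.4 FPKM in PGAM5 KD libraries. The groups were far apart, with a log2 fold change of 1.07 (SE 0.048, adjusted p = 2.45e-05). The conjugating enzymes were expressed at lower levels per length than Isg15 itself, with smaller log2 fold changes. Uba7 went from 4.65 ± 0.17 to 7.24 ± 0.57 FPKM (mean ± SD, n = 3; log2 fold change 0.54, adjusted p = 0.00144). Ube2l6 went from 9.31 ± 0.57 to 15.2 ± 1.6 FPKM (log2 fold change 0.65, adjusted p = 0.00154). Stretches of the Ube2l6 transcript resemble 16 other genes. Ube2l6 held at least 5.62% and at most 11% of the fragments of the whole set, whose sum had a log2 fold change of -0.0496, against 0.70 for Ube2l6 alone on that scale. Herc6 was too low to be tested, at 0.403, 0.480 and 0.485 FPKM in control and 0.700, 1.07 and 0.622 FPKM in PGAM5 KD libraries. Its groups did not overlap, and without the minimum expression its adjusted p was 0.164.

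Among genes that act on virus entry, replication and release, 7 of the 8 tested members of 10 rose, against 16.8% of all genes, and 5 were differentially expressed, against 0.787%. Rsad2 encodes viperin, which makes a chain-terminating nucleotide, and the neighbouring gene Cmpk2 encodes a mitochondrial nucleotide kinase that supplies its substrate. Their starts lie 12752 bases apart on opposite strands of chromosome 12. Rsad2 (ENSMUSG00000020641, chr12:26442746-26456452) was at 7.61, 8.39 and 7.61 FPKM in control and 23.5, 25.4 and 24.0 FPKM in PGAM5 KD libraries. Cmpk2 (ENSMUSG00000020638, chr12:26469204-26479837) was at 8.30, 9.79 and 8.22 FPKM in control and 21.6, 21.3 and 24.3 FPKM in PGAM5 KD libraries. The pair was at similar levels in each library. The log2 fold change of Rsad2 was 1.51 (SE 0.055, adjusted p = 1.44e-05), and that of Cmpk2 was 1.26 (SE 0.080, adjusted p = 8.60e-05).

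The Mx genes encode dynamin-like GTPases that trap viral nucleocapsids, and laboratory strains such as C57Bl/6 carry defective alleles of both. The annotation lists Mx2 as a polymorphic pseudogene. Mx2 (ENSMUSG00000023341) was at 3.44, 3.98 and 3.83 FPKM in control and 11.02, 9.95 and 11.2 FPKM in PGAM5 KD libraries, with no overlap (log2 fold change 1.30, SE 0.071, adjusted p = 4.52e-05). Mx1 (ENSMUSG00000000386) was close to absent, at 0.0145, 0.118 and 0.271 FPKM in control and 0.204, 0.102 and 0.152 FPKM in PGAM5 KD libraries. These values stand for 1 to 20 fragments a library, the groups overlapped, and Mx1 and Mx2 transcripts match at 94.8% over 920 bases, so reads of one could have been assigned to the other. With the fragments of Mx1 and Mx2 added together, the log2 fold change of Mx2 was 1.49 on the scale of fragments over depth, against 1.52 for its own fragments on that scale.

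Bst2 encodes tetherin, which holds budding virus particles at the cell surface, and it was among the 3 most highly expressed members in both groups. It was at 90.7, 84.6 and 94.2 FPKM in control and 179.7, 189.7 and 197.0 FPKM in PGAM5 KD libraries, with a log2 fold change of 1.06 (SE 0.051, adjusted p = 2.54e-05). When libraries were scaled to TPM or by quantiles, its log2 fold change fell below 1 (lowest 0.99) at an adjusted p that still passed. Isg20, the gene of an RNA exonuclease, was at 1.48, 1.79 and 1.54 FPKM in control and 5.06, 5.89 and 4.50 FPKM in PGAM5 KD libraries. It rose from a low level, with 50 to 207 fragments a library, and had a log2 fold change of 1.24 (SE 0.10, adjusted p = 0.000262).

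Ddx60, the gene of an RNA helicase, fell under the minimum because it was nearly absent in control. It was at 0.108, 0.143 and 0.242 FPKM in control and 1.23, 1.22 and 1.25 FPKM in PGAM5 KD libraries, which stand for 83 fragments over the control and 690 over the PGAM5 KD libraries. The ratio of the mean FPKM values was 7.50, above that of any tested member, and its log2 fold change without the minimum was 0.94 (adjusted p = 0.00143). Samd9l, which restrains translation, rose from 11.4 ± 0.5 to 17.8 ± 0.9 FPKM (adjusted p = 0.000323), and Rtp4, a receptor chaperone that limits viral replication, rose from 33.7 ± 3.5 to 49.6 ± 0.7 FPKM (adjusted p = 0.00174). Znfx1, a helicase-like sensor of double-stranded RNA, differed little at 24.5 ± 1.0 and 26.1 ± 0.3 FPKM. Its groups did not overlap, but the log2 fold change of 0.09 had a 95% confidence interval from -0.01 to 0.18 and an adjusted p of 0.160. It shares 82 exon bases with Zfas1 on the opposite strand.

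All 5 genes of the ADP-ribosylation group rose, each by less than 2-fold, against 16.8% of all genes tested that were higher. These proteins add ADP-ribose to proteins or RNA, and PARP9 works in a complex with the E3 ligase DTX3L. Parp10 rose most, from 11.4 ± 0.9 to 19.8 ± 1.1 FPKM (log2 fold change 0.75, adjusted p = 0.000305). Parp14, a large macrodomain protein, was at 13.8, 14.1 and 13.1 FPKM in control and 18.3, 17.3 and 17.7 FPKM in PGAM5 KD libraries. Its rise was the smallest of the group, with separate groups and a log2 fold change of 0.36 (SE 0.046, adjusted p = 0.00165). Parp12, which associates with stress granules, rose from 22.4 ± 0.5 to 32.2 ± 0.2 FPKM (log2 fold change 0.51, adjusted p = 0.000124).

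Parp9 and Dtx3l start head to head on chromosome 16 and overlap by 682 bases, with 458 exon bases in common on opposite strands. Parp9 rose from 12.5 ± 0.4 to 19.4 ± 0.6 FPKM (log2 fold change 0.60, adjusted p = 0.000189) and Dtx3l from 10.9 ± 0.5 to 15.6 ± 0.8 FPKM (log2 fold change 0.47, adjusted p = 0.00117). The labels do not say whether the libraries kept strand, so reads of the shared bases cannot be given to one or the other with certainty. Dtx3l transcripts also resemble stretches of Glo1, Spc24 and Irak2, and Dtx3l held 8.14% to 11.7% of the fragments of these genes and Parp9 together, whose sum had a log2 fold change of 0.12, against 0.51 for Dtx3l alone on that scale. Parp10 shares 205 exon bases with Plec on the same strand.

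The RNA-editing enzyme and the double-stranded RNA kinase of the list had small changes. ADAR edits adenosine to inosine in double-stranded RNA, and Eif2ak2 encodes PKR, the kinase that halts translation when it binds such RNA. Eif2ak2 was at 25.7, 26.0 and 26.8 FPKM in control and 35.5, 33.8 and 32.2 FPKM in PGAM5 KD libraries, so the groups were separate (log2 fold change 0.36, SE 0.045, adjusted p = 0.00151). Stretches of its transcript resemble 62 other genes. Eif2ak2 held 27.7% to 38.5% of the fragments of the whole set, whose sum had a log2 fold change of -0.0438, against 0.37 for Eif2ak2 alone on that scale. Adar was at 23.8, 23.5 and 24.4 FPKM in control and 26.5, 27.9 and 27.9 FPKM in PGAM5 KD libraries. Its groups were also separate, but the log2 fold change was 0.19 (SE 0.039, adjusted p = 0.0110), and scaled to TPM it no longer passed (log2 fold change 0.12, adjusted p = 0.0579). Adar shares 1365 exon bases, 16.8% of its exons, with Chrnb2 on the opposite strand.

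Of the 3 TRIM genes, Trim21 and Trim14 rose and Trim25 fell, where 16.8% of all genes tested were higher and 14.9% lower. Trim21, the gene of a cytosolic antibody receptor, was at 4.24, 4.23 and 4.61 FPKM in control and 5.79, 7.17 and 6.57 FPKM in PGAM5 KD libraries. It rose without overlap (log2 fold change 0.48, SE 0.081, adjusted p = 0.00508). Trim14, a mitochondrial adaptor of RNA sensing, rose from 3.58 ± 0.60 to 5.83 ± 0.58 FPKM (log2 fold change 0.58, adjusted p = 0.00951), but 31.3% of its exon bases lie opposite exons of Nans. Nans itself held more fragments in PGAM5 KD (1948 to 2667) than in control libraries (1670 to 1803), before division by depth. The PGAM5 KD library with 1948 was the shallowest of the 6, at a depth of 18163464 fragments. With both genes added together the log2 fold change was 0.34 on the scale of fragments over depth, against 0.71 for Trim14 alone on that scale.

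Trim25, the ligase that acts with the RNA sensor RIG-I, was the only member to fall. It was at 83.4, 85.3 and 84.99 FPKM in control and 76.0, 80.01 and 74.0 FPKM in PGAM5 KD libraries. Each PGAM5 KD value lay below each control value, by a small margin, with a log2 fold change of -0.14 (SE 0.037, 95% confidence interval -0.23 to -0.05, adjusted p = 0.0282). The call was lost without control replicate 1, 2 or 3 (adjusted p = 0.0566, 0.0806 and 0.0806), without PGAM5 KD replicate 1 or 3 (0.0633 and 0.0832) and without the mean-variance trend (0.0689). In control its level ranked 4 among the 44.

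Of the genes of nuclear bodies and chromatin, Phf11d, Phf11b, Sp100 and Daxx rose, where 16.8% of all genes tested were higher. Sp110 is described apart because of its low control level. Phf11d, from a family of PHD finger proteins, was at 5.57, 5.41 and 4.32 FPKM in control and 13.6, 12.03 and 11.9 FPKM in PGAM5 KD libraries. The groups were well apart (log2 fold change 1.15, SE 0.096, adjusted p = 0.000244). Phf11b was lower, at 0.651, 0.963 and 1.56 FPKM in control and 2.57, 3.02 and 2.49 FPKM in PGAM5 KD libraries (log2 fold change 0.87, adjusted p = 0.00918). Phf11b and Phf11d transcripts match at 92.9% over 692 bases and also resemble Phf11a, Phf11c and Gm6904. With the fragments of these genes added together, the log2 fold change was 1.17 on the scale of fragments over depth, and Phf11d held between 73.3% and 89.2% of those fragments. Phf11b held 2.61% to 6.96% of them, so the sum says little of Phf11b.

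SP100 and SP110 are proteins of the nuclear bodies organised by PML, and DAXX is a histone chaperone found in them. Sp100 rose from 1.75 ± 0.39 to 3.85 ± 0.30 FPKM (log2 fold change 0.83, adjusted p = 0.00276). Daxx rose from 25.1 ± 0.5 to 33.2 ± 0.4 FPKM (log2 fold change 0.39, adjusted p = 0.000343). Sp110 went from 0.773 ± 0.248 to 1.70 ± 0.30 FPKM, at 0.804, 0.512 and 1.00 FPKM in control and 1.42, 1.68 and 2.01 FPKM in PGAM5 KD libraries. Its call (log2 fold change 0.61, adjusted p = 0.0218) was lost without control replicate 1 or 2 (adjusted p = 0.0517 and 0.0559), without PGAM5 KD replicate 2 or 3 (0.0631 and 0.0785) and with no minimum expression (0.0526). With a pseudocount of 0.1 in place of 1, which compresses low genes less, Sp110, Sp100 and Phf11b were differentially expressed as well and the number rose from 12 to 15.

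NMI and IFI35 bind each other and can be released from macrophages as danger signals. Nmi rose from 5.42 ± 0.34 to 9.17 ± 0.91 FPKM (log2 fold change 0.66, adjusted p = 0.00133) and Ifi35 from 14.5 ± 0.1 to 21.9 ± 0.8 FPKM (log2 fold change 0.56, adjusted p = 0.000172). The pair thus changed by similar amounts. Ifi35 shares 16.8% of its exon bases with the antisense gene Gm11626, which held at most 4 fragments in a control library and at most 21 in a PGAM5 KD library.

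The genes of lysosomal, secreted and membrane proteins were mixed. Lgals9, which encodes the carbohydrate-binding protein galectin-9, was at 13.2, 16.4 and 14.2 FPKM in control and 32.1, 33.5 and 33.2 FPKM in PGAM5 KD libraries (log2 fold change 1.12, SE 0.073, adjusted p = 9.44e-05). Lgals3bp, a secreted galectin ligand, rose from 49.3 ± 1.7 to 86.6 ± 1.8 FPKM (log2 fold change 0.80, adjusted p = 2.54e-05). Shisa5, an endoplasmic reticulum membrane protein, rose from 23.1 ± 0.6 to 35.1 ± 1.1 FPKM (log2 fold change 0.58, adjusted p = 0.000114). All 3 had groups that did not overlap, where 24.2% of all genes tested had every PGAM5 KD library above every control library.

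Ifi30, the lysosomal thiol reductase that prepares antigens for presentation, was the most highly expressed member in control and did not pass the threshold. It was at 176.5, 176.5 and 176.0 FPKM in control and 168.7, 170.8 and 185.4 FPKM in PGAM5 KD libraries, which overlapped (log2 fold change -0.01, 95% confidence interval -0.11 to 0.08, adjusted p = 0.841). Tor3a, an ATPase of the endoplasmic reticulum, was at 51.1 ± 4.2 and 48.5 ± 0.4 FPKM, also with overlap (log2 fold change -0.07, 95% confidence interval -0.21 to 0.07, adjusted p = 0.393). Ms4a4c, a membrane protein of the CD20 family, had no fragments in any library, which allows up to 3 fragments, or 0.0943 FPKM in the shallowest library, by counting error alone.

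All 6 genes of the last group rose, against 16.8% of all genes, and 3 of them were differentially expressed, against 0.787%. Ifi44 (ENSMUSG00000028037), a cytosolic GTPase-like protein, was at 12.1, 11.9 and 11.99 FPKM in control and 32.0, 32.9 and 34.6 FPKM in PGAM5 KD libraries. Its log2 fold change was 1.40 (SE 0.043) and its adjusted p, 7.42e-06, was the lowest of the members. Epsti1, a stromal interaction protein expressed in macrophages, was at 3.84, 3.39 and 2.63 FPKM in control and 9.06, 10.7 and 10.6 FPKM in PGAM5 KD libraries. The lowest PGAM5 KD value was more than double the highest control value (log2 fold change 1.38, SE 0.12, adjusted p = 0.000273).

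Ifi27 and Ifi27l2a are neighbours on chromosome 12 that encode small hydrophobic proteins of mitochondrial and nuclear membranes. Ifi27l2a was at 18.8, 10.2 and 15.4 FPKM in control and 43.3, 35.7 and 43.9 FPKM in PGAM5 KD libraries. The groups were separate, but the standard error was the largest of the tested members, with a log2 fold change of 1.45 (SE 0.20, 95% confidence interval 0.97 to 1.92, adjusted p = 0.00217). Ifi27 rose from 129 ± 7 to 207 ± 17 FPKM and became the most highly expressed member in PGAM5 KD, with a log2 fold change of 0.68 (SE 0.068, adjusted p = 0.000509). Xaf1, a partner of the caspase inhibitor XIAP, rose from 4.88 ± 0.45 to 7.52 ± 0.56 FPKM (adjusted p = 0.00304) and Ogfr, the opioid growth factor receptor, from 35.7 ± 2.8 to 48.4 ± 3.3 FPKM (adjusted p = 0.00444). Stretches of the Xaf1 transcript resemble 50 other genes, and Xaf1 held at most 1.03% of the fragments of the whole set. That sum had a log2 fold change of -0.00152, against 0.63 for Xaf1 alone on that scale.

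**Figure D4:**
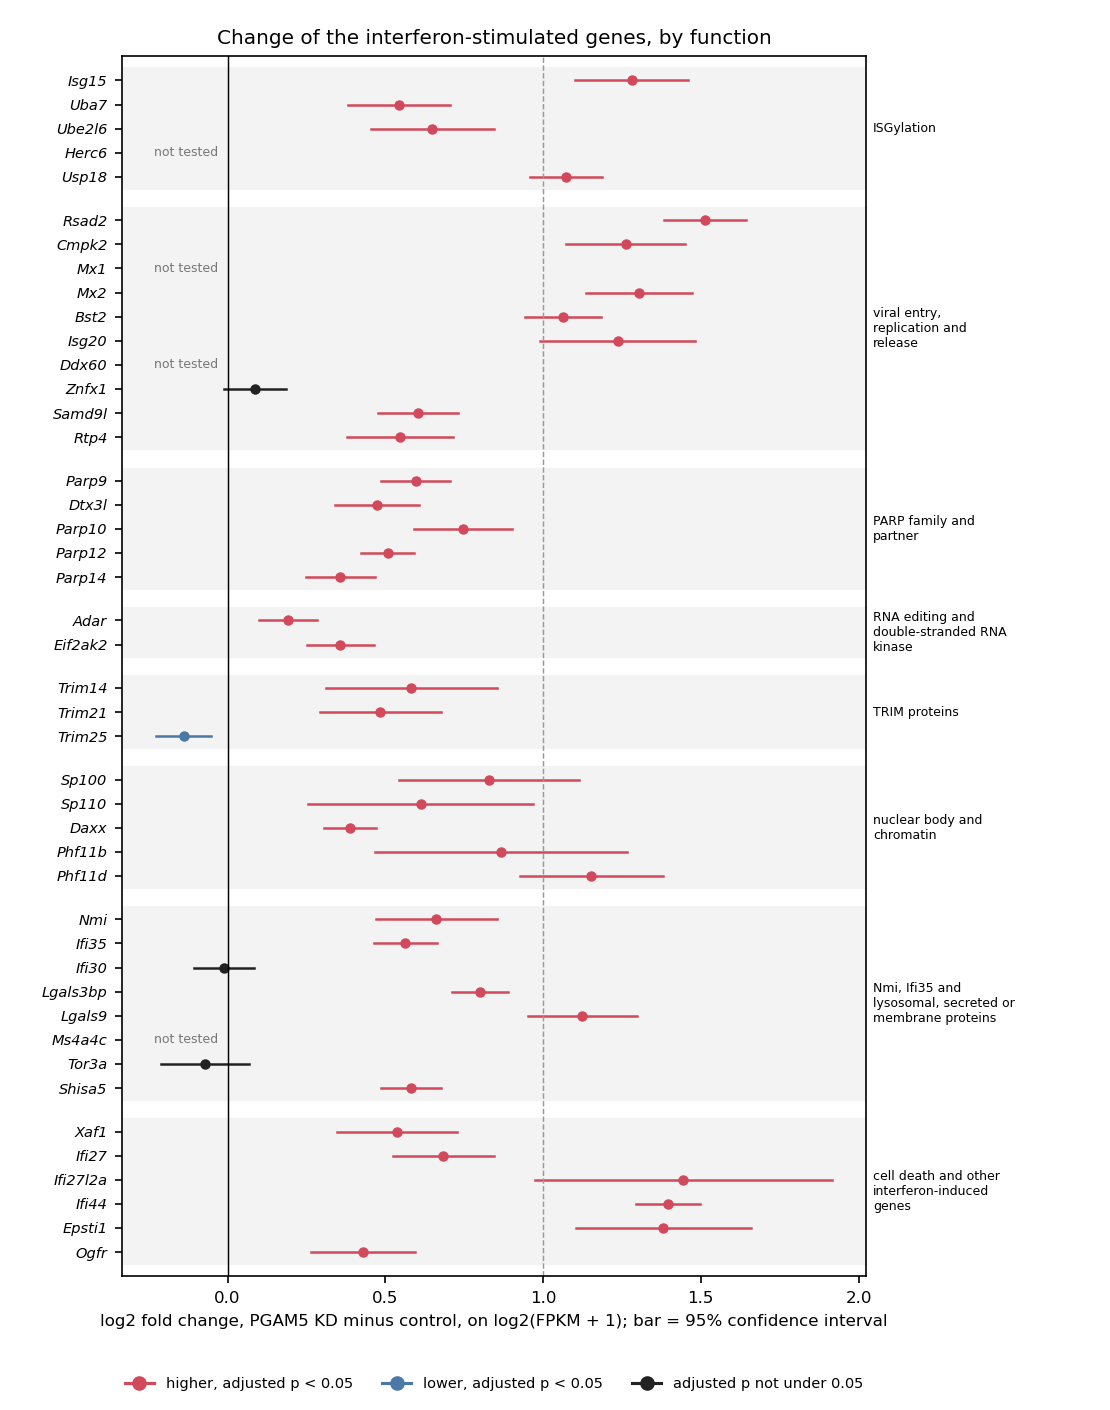
Log2 fold change of PGAM5 KD over control with its 95% confidence interval for the 40 tested members, grouped by function. Red marks members that were higher and blue the one that was lower at an adjusted p under 0.05, black those that did not pass, and the dashed line stands at 1. The 12 differentially expressed members lie to the right of that line, and the PARP family group and Adar and Eif2ak2 lie between 0 and 1.

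Of 31 genes that make or carry the interferon signal, 25 were tested, of which 10 were higher and 2 lower in PGAM5 KD, beside the same 16.8% and 14.9% of all genes. Their median log2 fold change was 0.11. Of the interferons, Ifnb1 was at 2.06, 0.661 and 0.615 FPKM in control and 0.425, 0.514 and 1.26 FPKM in PGAM5 KD libraries, which overlapped and stand for 7 to 28 fragments a library. Ifna1, Ifna2, Ifna4 and Ifna5 were at 0 in all 6 libraries, an allowance of at most 0.294 FPKM each at 3 fragments. The receptor genes Ifnar1 (adjusted p = 0.970) and Ifnar2 (adjusted p = 0.516) differed by less than the spread between libraries, at 10.1 ± 0.5 and 10.1 ± 0.1 FPKM for Ifnar1. Of the 5 tested receptor genes, 1 was higher and 1 lower, where 16.8% and 14.9% of all genes were. The lower one was Il10rb, a shared receptor chain, which fell from 7.83 ± 0.26 to 5.90 ± 0.50 FPKM (adjusted p = 0.00799).

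Among the transcription factors of this list, 5 of 7 rose, against 16.8% of all genes. Irf7, which amplifies interferon production, was at 15.2, 14.5 and 15.9 FPKM in control and 49.3, 45.7 and 49.2 FPKM in PGAM5 KD libraries. Its log2 fold change of 1.60 (SE 0.050, adjusted p = 7.42e-06) was above that of every tested member on the log2(FPKM + 1) scale, although Isg20 and Ddx60 exceeded Irf7 (3.16) by ratio of mean FPKM. Stat2 rose from 6.28 ± 0.56 to 12.1 ± 0.2 FPKM (adjusted p = 0.00018). Irf9 was at 12.4 ± 0.9 and 12.7 ± 0.5 FPKM (adjusted p = 0.796), and Irf3 at 9.62 ± 0.16 and 9.25 ± 0.28 FPKM (adjusted p = 0.433). Socs3, a feedback inhibitor of JAK signalling, rose from 38.9 ± 2.1 to 87.9 ± 0.8 FPKM (adjusted p = 1.54e-05).

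Traf3, an adaptor of the TRIF pathway, was lower by 0.17 on the log2 scale at an adjusted p of 0.0489, and Ticam1, the gene of TRIF, was higher by 0.25 (adjusted p = 0.0239). The call of Traf3 was lost without any single library other than PGAM5 KD replicate 1, and Ticam1 was no longer called without control replicate 2 or 3 or PGAM5 KD replicate 1 or 3. The number higher fell from 10 to 6 without control replicate 3, without PGAM5 KD replicate 3 or scaled to TPM. The share of all genes that were higher fell too, from 16.8% to 12.4%, 11.5% and 10.3% in that order.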

How the data were processed

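RNA-seq of poly(A) RNA was analysed for 3 control and 3 PGAM5 KD libraries, grouped by their labels. The authors deposited FPKM per Ensembl gene and library. The submitters' processing notes name HISAT2 2.0.5, featureCounts 1.5.0-p3 and mm10, and the labels do not say whether strand was kept. Names, positions and summed exon lengths of genes were taken from GENCODE M21 (GRCm38), which held 54495 of the 54532 identifiers. FPKM times exon length fell on whole fragments within 0.01 for 96.8% to 97.1% of values under 1000 fragments, which gave the depth. FPKM carries no scaling between libraries beyond depth, and its sum over all genes was higher in PGAM5 KD (317936 to 324298) than in control (304393 to 304889).

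The two-sided test was limma (version 3.58.1, R 4.3.3, eBayes with trend, Benjamini-Hochberg) on log2(FPKM + 1), over 10540 genes whose mean reached 1 FPKM. Fold changes on this scale understate the change of low genes. A member was differentially expressed where its adjusted p was under 0.05 and its log2 fold change exceeded 1 in size. The script was tested on simulated data. Pairs of libraries of a group differed by more than counting noise (chi-square per degree of freedom of 4.82 or more). Resembling genes were those matched by blastn 2.17.0 at 85% or more over 200 bases or more of transcript. Intervals and floors cover counting error only where they rest on fragments. Members, their functional groups, the 31 genes of interferon production and signalling, the markers and motifs were chosen with earlier results of these data known. Some genes of these lists are counted but not reported here by name. Values in every library are given for differentially expressed members, members that fell, members below the minimum, and Isg15, Usp18, Rsad2, Mx1, Mx2, Bst2, Eif2ak2, Adar, Parp14, Trim21, Trim25 and Ifi30, and for a few others named for their calls after their values were seen. Alternatives were a pseudocount of 0.1, no minimum or a mean FPKM of 5, TPM, quantile and median scaling, no trend, voom on recovered fragments, the replicate number as a block, each library left out, and fragments summed with resembling genes.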

Additional observations from a re-analysis of the deposited data

How the results depend on the processing

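Between 31 and 36 members were higher under every alternative, the lowest with a mean FPKM of at least 5, which left 35 members to test. The share of all genes tested that were higher ran from 6.36% with no minimum to 21.5% with a mean FPKM of at least 5. Differentially expressed members numbered 11 to 15 (12 with the main settings, against 0.787% of all genes). The median log2 fold change of the members was 0.59 to 0.70, with 0.69 at a pseudocount of 0.1 and 0.70 with voom on recovered fragments. With libraries left out it was 0.60 to 0.64, with 35 or 36 members higher, against 11.5% to 14.1% of all genes. The number of members lower went from 1 to 0 with no mean-variance trend (14.9% of all genes lower) and with the replicate block (11.5%). It was 0 or 1 with libraries left out (10.7% to 12.9%). Scaled to TPM, the share of all genes that were higher went from 16.8% to 10.3% and lower from 14.9% to 21.7%, while 35 members were higher and 1 lower. Of the tested genes of interferon production and signalling, 6 were higher when scaled to TPM, against 10.3% of all genes. There were 7 higher with the replicate block (13.7% of all genes), with no minimum (6.36%) or with a mean FPKM of at least 5 (21.5%). With libraries left out 6 to 8 were higher (11.5% to 14.1%). The number of them lower was 3 when scaled to TPM, against 21.7% of all genes. It was 1 with no minimum (6.09% of all genes), with median centring (14.3%) and with no trend (14.9%). With libraries left out it was 1 or 2 (10.7% to 12.9%).

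Ifi30 changed sign without PGAM5 KD replicate 1 and 2 (adjusted p of 0.839 and 0.961), and its log2 fold change ran from -0.0545 to 0.0131 with libraries left out. The fragments of Ube2l6, Eif2ak2 and Xaf1 summed with those of 16, 62 and 50 resembling genes had negative log2 fold changes (-0.0496, -0.0438 and -0.00152), but the members held only 0.574% (Xaf1) to 38.5% (Eif2ak2) of these sums, so the other genes make up most of them. Of the other sums, 6 differed from the member alone on the same scale by more than the spread between libraries (Samd9l, Parp9, Dtx3l, Trim14, Phf11b and Phf11d) and 9 by less. Those 9 members held at least 86.1% (Sp110) of their sums, and Rtp4 and Uba7 held 100%, so these sums could differ little from the member. At a pseudocount of 0.1 the log2 fold change of Isg20 (1.62) was as large as that of Rsad2 (1.61). Same-numbered libraries did not deviate together (r of -0.02, 0.02 and -0.05). With 3 libraries per group these values cannot show whether same-numbered libraries were prepared together, which is not given. With the replicate block 36 members were higher, against 13.7% of all genes, and 0 lower, against 11.5%. In that fit 12 members were differentially expressed, and the call of Trim25 was the one lost (adjusted p = 0.0523). Depth limits Mx1, Herc6, Ddx60, Phf11b, Isg20 and Ms4a4c, with at most 264 fragments in any library.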
